A study of Mus musculus with 2 samples.

Results

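The cells described here are B cells of mouse Peyer's patches whose heavy chain is IgM. A member is a cell barcode with exactly 1 productive heavy chain, whose constant gene was called IGHM and whose contig, the assembled receptor transcript, rested on fewer than 100 unique molecular identifiers (UMIs, tags that mark single captured transcripts). The rule gave 3446 members among 6241 cells with exactly 1 productive heavy chain and 6993 barcodes in all. Of the members, 1913 came from the Cre+ library and 1533 from the Cre- library, and 1 barcode sequence occurred among the members of both. The limit of 100 UMIs removed 21 IgM cells, 12 Cre+ and 9 Cre-, and kept 99.4% of the IgM cells of each genotype.

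Peyer's patches are lymphoid follicles of the small intestine. The study compared H2-Ab1 fl/fl mice that carry Villin:Cre, in which the MHC class II beta chain gene is deleted where the villin promoter drives the recombinase, in intestinal epithelial cells, with H2-Ab1 fl/fl mice that lack Cre. All mice were adult females, and leukocytes were enriched on magnetic beads through CD45, which they carry on their surface. Cells of 4 mice were pooled per genotype into 1 library for 5′ receptor sequencing, with no label that ties a cell to a mouse, so no difference between the libraries has a replicate check and no test was made. The design text gives the Cre-negative genotype for both groups, while the sample labels, which were used here, give Cre+ and Cre-; H2-Ab1 was not measured, so the genotype was not checked in the data. The Cre+ library held 12300 contigs and 355258 UMIs, and the Cre- library 10108 contigs and 355985 UMIs. Percentages are shares of cells with exact 95% Clopper-Pearson intervals, and intervals of differences were combined from both; they cover counting error only.

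A B cell builds its heavy chain by joining V, D and J segments, and the junction, the third complementarity-determining region (CDR3), is the most variable stretch of the receptor. A mature naive B cell transcribes IgM and IgD from the same rearranged gene by alternative splicing, and after activation it may replace them by switching to IgG or IgA. In germinal centres, which Peyer's patches form continuously, the rearranged genes also gain point mutations. The tables hold no V region sequence, so mutation could be looked for only inside the CDR3.

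The 3′ end of each CDR3 comes from the J segment, and the most common version of it in IgM and IgD cells served as the unmutated reference. The references are shown because the mismatch shares given further on count departures from their 9 nucleotides before the last codon.
IGHJ1: ttcgatgtctgg
IGHJ2: tttgactactgg
IGHJ3: tttgcttactgg
IGHJ4: atggactactgg
The reference stretch was intact in 589 of 612 members with IGHJ1, 863 of 1213 with IGHJ2, 640 of 755 with IGHJ3 and 835 of 866 with IGHJ4. For each J gene, the CDR3 of the 2 mismatched members with the most UMIs follows, with the mismatched bases in capitals.
IGHJ1, IGHV1-9, 59 UMIs: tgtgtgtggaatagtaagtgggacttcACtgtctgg
IGHJ1, IGHV6-3, 27 UMIs: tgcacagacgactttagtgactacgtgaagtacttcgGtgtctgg
IGHJ2, IGHV9-2, 94 UMIs: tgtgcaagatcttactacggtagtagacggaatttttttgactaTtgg
IGHJ2, IGHV6-3, 91 UMIs: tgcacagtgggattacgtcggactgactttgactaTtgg
IGHJ3, IGHV1-9, 96 UMIs: tgtgcaagagactGGActGactgg
IGHJ3, IGHV6-3, 49 UMIs: tgcaccatctgggaccagtttgcttTctgg
IGHJ4, IGHV1-15, 74 UMIs: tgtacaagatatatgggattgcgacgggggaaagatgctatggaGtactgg
IGHJ4, IGHV1-15, 36 UMIs: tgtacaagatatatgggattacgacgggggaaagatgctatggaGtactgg
In 6 of these 8 sequences a single base departed from the reference. The mismatched bases of the IGHV1-9 member with IGHJ3 were 4, in a short CDR3, a place where trimming of the J segment at the joint also gives mismatches. The last pair share the same departure and differ from each other at 1 base further upstream.

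The members had few heavy-chain transcripts, but their medians were no lower than those of IgD cells. Cre+ members had a median of 8 heavy-chain UMIs (middle 50% from 5 to 13, highest 96) and Cre- members one of 9 (5 to 14, highest 97). IgD cells, counted under the same limit of 100 UMIs, had medians of 8 and 8. IgG2b cells had medians of 8 and 12, and IgA cells, once each library's largest lineage was set aside, 16 and 14. A low load was therefore shared with IgD cells and, in the Cre+ library, with IgG2b cells, so the limit separates the members from 21 IgM cells of high count and not from other classes. Since the rule sets the upper end of this range, the medians are a description. A single heavy-chain UMI supported 2.56% of Cre+ and 3.33% of Cre- members.

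IgM cells were sparse on either side of the limit. The highest Cre+ members had 87, 92 and 96 heavy-chain UMIs, and the last of these used IGHV1-9. The first Cre+ cells above the limit had 126, 143, 145, 145 and 163. A wider step followed, to 513, and the highest reached 4753. In the Cre- library the highest members had 91, 94 and 97 UMIs with IGHV1-76, IGHV9-2 and IGHV4-1, and the cells above began at 148, 260 and 330 and reached 2910. The CDR3 of the Cre+ member closest to the limit was tgtgcaagagactggactgactgg, of 8 residues, and that of the Cre- member closest to it was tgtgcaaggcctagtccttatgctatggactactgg, of 12 residues.

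Heavy-chain UMIs of members depended on the V family. Members with IGHV14 genes had a median of 6 in both libraries, and members with IGHV1 genes, the largest family, 8 and 8. Members with IGHV2 genes had medians of 13 (Cre+) and 15 (Cre-), those with IGHV6 genes 13 and 14, and those with IGHV7 genes 13.5 and 14. Over 12 families the medians ran from 6 to 13.5 in the Cre+ library and from 6 to 15 in the Cre- library. Across these 12 families the libraries' medians had Pearson's r of 0.824 and Spearman's rho of 0.795; families are not replicates, and the libraries share the assay and the V genes. Light-chain UMIs of the same cells did not repeat this order, with r of -0.196 between the libraries. IgD cells showed a similar spread by family, with medians of 6 and 5 for IGHV14 and 12 and 14 for IGHV2. Over the 9 families with enough IgD cells, the libraries' medians had r of 0.777 and rho of 0.826 for heavy-chain UMIs and r of 0.626 and rho of 0.202 for light-chain UMIs.

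**Figure D1:**
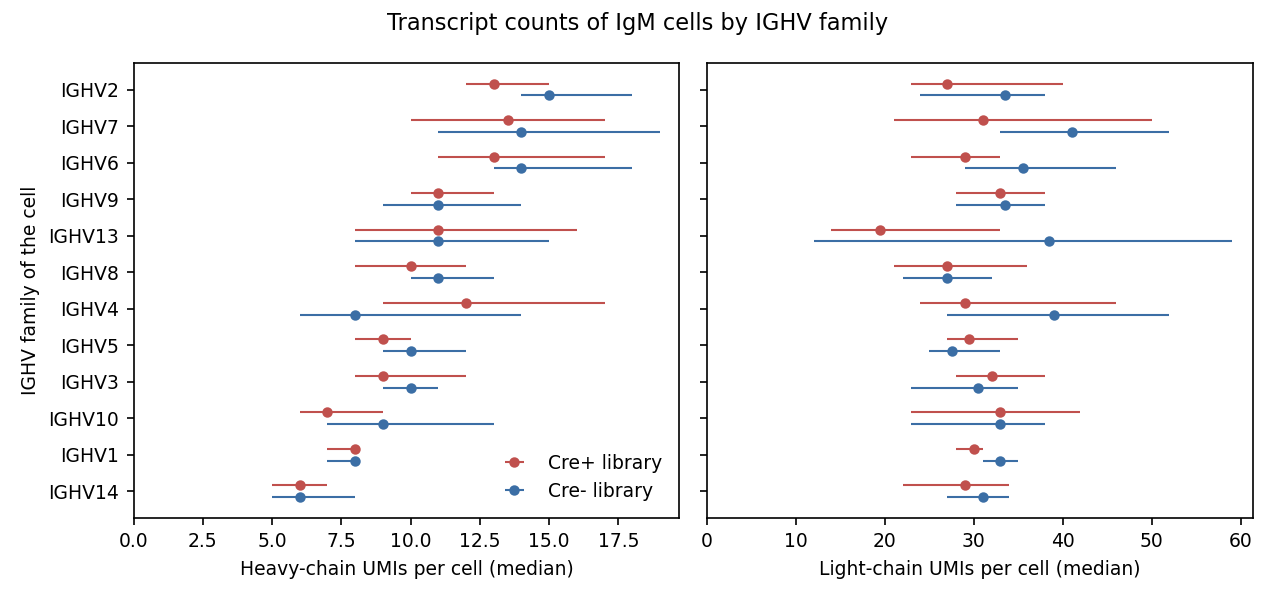
Median heavy-chain UMIs (left) and light-chain UMIs (right) per IgM cell for each IGHV family, with bars for the 95% order-statistic interval of the median; red is the Cre+ and blue the Cre- library. Heavy-chain medians rise from 6 in IGHV14 to 13 and 15 in IGHV2, while light-chain medians show no such order.

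Divided by single gene, the same cells showed a similar spread, which also split the large IGHV1 family. Genes and families share their cells, so the genes are no separate support for the family pattern. Among 26 IGHV genes with 20 or more members in each library, the lowest medians were those of IGHV1-26 (6 and 6 heavy-chain UMIs), IGHV1-55 (6 and 5) and IGHV1-52 (6 and 5.5). The highest were those of IGHV6-3 (15 and 16), IGHV2-2 (14 and 15) and IGHV1-15 (15 and 13), the last a gene of the same family as the 3 lowest. These genes were singled out after their values were seen, except IGHV1-26 and IGHV1-55, which are among the 10 most used. Across the 26 genes the medians of the libraries had r of 0.818 for heavy-chain UMIs and -0.116 for light-chain UMIs.

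IgM was the most frequent class. Members made up 58.4% (56.7 to 60.1) of Cre+ cells with a constant gene and 52.2% (50.4 to 54.0) of Cre- cells, a difference of 6.20 percentage points (3.70 to 8.69). The largest lineage of the Cre- library, an IgA lineage, sits in that denominator. With each library's largest lineage set aside the shares were 59.3% and 60.8%, a difference of -1.51 points (-4.08 to 1.07). Among IgM and IgD cells alone, members were 66.0% (Cre+) and 68.0% (Cre-), a difference of -1.96 points (-4.57 to 0.655).

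The split between IgM and IgD lay further toward IgM at the highest transcript counts. In the Cre+ library IgM made up 57.9% of IgM and IgD cells at 1 to 2 heavy-chain UMIs, 64.98% at 3 to 5, 65.1% at 6 to 9, 66.7% at 10 to 19, 75.2% at 20 to 49 and 93.8% at 50 to 99. In the Cre- library the same ranges gave 67.1%, 68.8%, 64.9%, 68.5%, 73.1% and 100%, with no steady rise from 1 to 19 UMIs. The range of 50 to 99 UMIs held 15 IgM and 1 IgD cells in the Cre+ library (interval 69.8 to 99.8). In the Cre- library it held 17 and 0 (80.5 to 100). Cells of 20 or more UMIs were 8.89% of Cre+ members against 5.27% of IgD cells, a difference of 3.61 points (1.60 to 5.50), and 9.78% against 6.78% in the Cre- library, a difference of 3.01 points (0.473 to 5.36). Below the limit of 100 UMIs, IgM cells of both libraries had the longer upper tail, although the medians of IgM and IgD were alike. The rule for members uses heavy-chain UMIs, so these shares and differences are a description.

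Many members also held a second, incomplete constant-gene transcript. The Ighm and Ighd constant genes are neighbours (GRCm38.p6 chr12:113418826-113422730 and chr12:113407535-113416324). A contig with the IGHD constant gene that was not called productive was found in 8.0% (6.82 to 9.31) of Cre+ members. In Cre- members the share was 7.96% (6.65 to 9.43). Productive IGHD contigs were not counted by this measure. No such contig was found in 144 and 131 IgA cells outside the largest lineages, nor in 88 and 86 IgG2b cells, whose exact upper limits lie between 2.53% and 4.2%. These contigs became rarer as heavy-chain UMIs rose. Their share in Cre+ members went from 13.2% at 1 to 2 UMIs to 9.61% at 6 to 9, 4.69% at 10 to 19 and 0.645% at 20 to 49, and none of the 15 members at 50 to 99 had one. In Cre- members it went from 12.9% at 1 to 2 UMIs to 11.3% at 6 to 9, 4.24% at 10 to 19 and 1.5% at 20 to 49, with none in 17 at 50 to 99. Such contigs lacked a V segment in 135 of 153 Cre+ members and 96 of 122 Cre- members that had one. A nonproductive IGHD contig was not particular to the members, since IgD cells also held one beside their productive chain. Its share in IgD cells was 7.01% (Cre+) and 6.45% (Cre-) at 3 to 5 UMIs, 12.9% and 12.3% at 6 to 9, and 9.40% and 3.6% at 10 to 19.

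Contigs of other constant genes without a V segment were measured in the same way. An IGHM contig without V, beside the productive one, was present in 13.0% of Cre+ and 12.7% of Cre- members, in 14.6% and 14.5% of IgD cells, and in 4.86% and 6.11% of IgA cells outside the largest lineages. An IGHG2B contig without V was present in 28 Cre+ members (1.46%) and 11 Cre- members (0.718%), a difference of 0.746 points (0.001 to 1.48) at the edge of counting error. In 37 of these 39 contigs the J segment was called TRAJ13, a T cell receptor segment, although the contig ended in a heavy-chain constant gene. Such calls were not particular to IGHG2B. The members' IGHM contigs without V had a T cell receptor J call in 173 of 254 (Cre+) and 131 of 196 (Cre-). Their IGHD contigs without V had one in 15 of 135 and 8 of 96, and their IGHA contigs without V in 2 of 3 and 6 of 6. An IGHA contig without V was present in 3 Cre+ and 6 Cre- members. As background, B cells are known to transcribe unrearranged constant genes before they switch. A further 2 Cre- members had an IGHG3 contig without V.

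Lambda constant-gene contigs without V were more frequent than these, and less so in the members than in switched cells. They were found in 44.4% (42.2 to 46.7) of Cre+ and 49.9% (47.4 to 52.4) of Cre- members, a difference of -5.47 points (-8.85 to -2.07). IgD cells had 44.7% and 45.0%. IgA cells outside the largest lineages had 74.3% and 72.5%, and IgG2b cells 69.3% and 74.4%. Within the members the share rose with heavy-chain UMIs, from 23.7% at 1 to 2 UMIs to 67.1% at 20 to 49 in the Cre+ library and from 35.3% to 69.9% in the Cre- library, so transcript count moves with this measure.

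**Figure D2:**
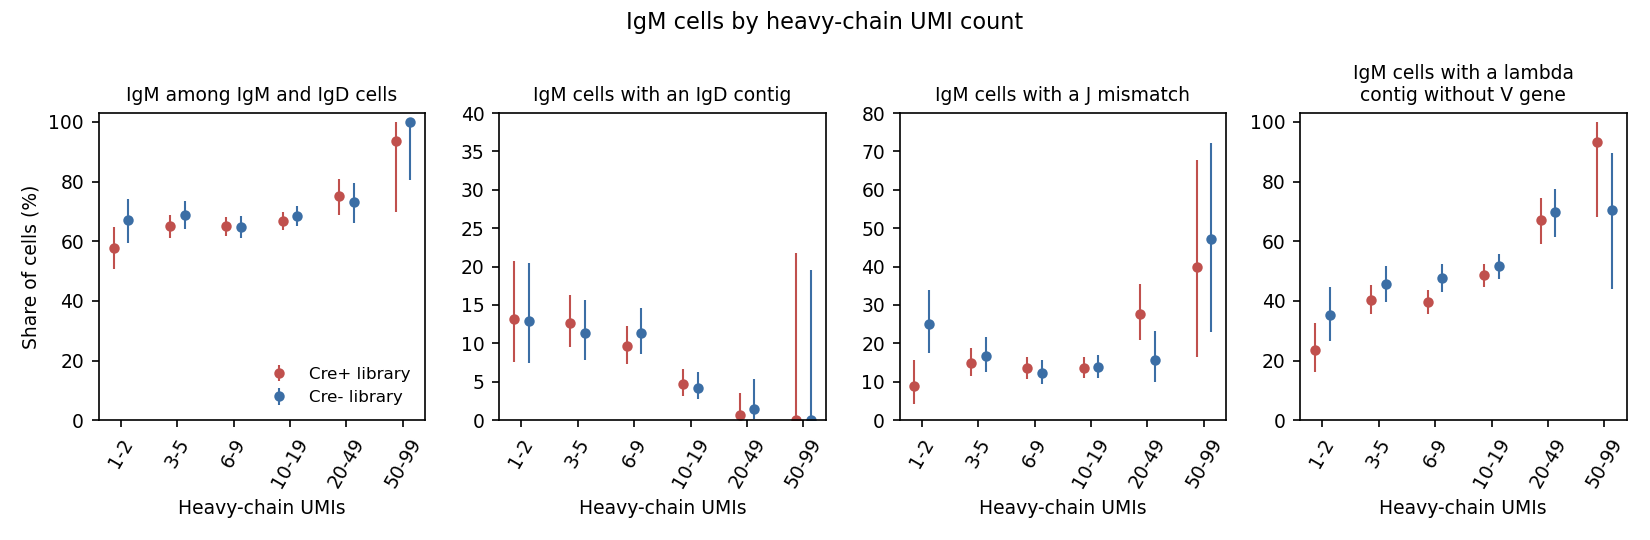
Shares of cells, in percent with exact 95% intervals, by range of heavy-chain UMIs in the Cre+ (red) and Cre- (blue) library. IgM reaches 93.8% and 100% of IgM and IgD cells at 50 to 99 UMIs, and J mismatches in IgM cells reach 40% and 47.1% there. IgD contigs in IgM cells, counted where not called productive, fall to 0 in that range. Lambda contigs without a V gene rise from 23.7% and 35.3% at 1 to 2 UMIs.

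Nearly every member had a paired light chain. A productive light chain was found in 99.2% (98.6 to 99.5) of Cre+ and 98.9% (98.2 to 99.4) of Cre- members. Light-chain transcripts outnumbered heavy-chain transcripts, with medians of 30 and 32.5 light-chain UMIs and a median ratio of light to heavy UMIs of 3.50 in each library. The ratio was 3.44 and 3.73 in IgD cells and 2.58 and 2.45 in IgA cells outside the largest lineages. In IgG2b cells it was 4.53 and 3.44, and in the few IgG1 cells 3.30 and 4.83. Across switched classes the ratio thus lay both above and below that of the members. Within the Cre+ members it went from 11.5 at 1 to 2 heavy-chain UMIs to 1.45 at 50 to 99, as a ratio with the heavy-chain count in its denominator does. A second productive light chain was present in 9.10% and 8.94% of members, and a nonproductive heavy-chain contig in 5.02% and 5.41%. T cell receptor contigs were present in 3.55% and 2.48% of members, and none of them was productive or carried a V segment.

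Most members used kappa chains. Lambda made up 5.17% (4.21 to 6.26) of Cre+ and 4.82% (3.79 to 6.02) of Cre- members with a light chain, and 4.59% and 5.60% of IgD cells. IGLV1 was the lambda gene in 73.5% and 67.1% of lambda members, IGLV2 in 16.3% and 16.4%, and IGLV3 in 10.2% and 16.4%. The kappa J genes divided as 31.5% and 29.0% IGKJ1, 31.6% and 33.4% IGKJ2, 13.4% and 13.4% IGKJ4, and 23.6% and 24.3% IGKJ5, the segment farthest downstream that serves late rearrangements. IGKJ5 was at 26.8% and 28.2% in IgD cells, and the differences of -3.25 points (-6.79 to 0.224) and -3.93 points (-8.12 to 0.143) were within counting error in each library.

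Light chains recurred across cells and libraries, while heavy chains seldom recurred within a library and were not found to recur across libraries. The 3 light-chain CDR3s carried by the most members are shown because each occurred with a different heavy chain in every cell.
IGKV10-96 with IGKJ1, 61 members: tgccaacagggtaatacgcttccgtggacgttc
IGKV1-117 with IGKJ1, 56 members: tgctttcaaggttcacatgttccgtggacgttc
IGLV1 with IGLJ1, 47 members: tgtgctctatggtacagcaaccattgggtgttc
The 61 members with the first sequence, 41 Cre+ and 20 Cre-, had 61 different heavy chains over 35 IGHV genes. The 56 members with the second had 56 heavy chains over 39 IGHV genes, and the 47 members with the third had 47 heavy chains over 31. Of the members with a light chain, 82.2% (Cre+) and 84.8% (Cre-) had a light V gene and CDR3 nucleotide sequence that was also found among members of the other library. No heavy chain was identical across the libraries, in 0 of 1913 and 0 of 1533 members, with exact upper limits of 0.193% and 0.240%.

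The IGKV genes with the most members were IGKV10-96 at 5.78% of Cre+ and 4.92% of Cre- kappa members, IGKV1-117 at 5.28% and 4.30%, IGKV1-110 at 3.78% and 4.64%, IGKV1-135 at 3.84% and 4.30%, and IGKV6-15 at 3.95% and 3.19%. A gene passed the rule of size between 2 sides when both together held 20 or more of its cells, one share was at least 1.5 times the other, and their intervals were apart. Between the libraries 1 of 50 IGKV genes passed (2%), IGKV16-104, at 0.611% of Cre+ and 1.8% of Cre- members. The same gene was the 1 of 46 (2.17%) that passed between IgM and IgD in the Cre+ library, where IgD cells had 2.35%. Of 42 genes in the Cre- library 0 passed, and IgD cells there had 0.890%, below the IgM share. IGKV16-104 was thus lower in IgM than in IgD cells of one library and nominally higher in the other.

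The members used a broad set of heavy-chain V genes, 90 among Cre+ and 88 among Cre- members. IGHV1-26 (chr12:114788372-114788665, from a RefSeq table of GRCm38.p6) led with 6.43% (5.37 to 7.62) of Cre+ and 5.94% (4.81 to 7.24) of Cre- members. IGHV3-6 followed with 3.24% and 4.24%, then IGHV1-64 with 3.08% and 3.52%, IGHV1-82 with 3.45% and 2.74%, and IGHV1-53 with 2.93% and 3.0%. The others of the 10 most used were IGHV9-3 with 3.14% and 2.74%, IGHV1-72 with 2.77% and 3.13%, IGHV1-55 with 2.82% and 2.94%, IGHV5-17 with 3.14% and 2.48%, and IGHV1-80 with 2.04% and 3.78%. The 10 most used genes of each library held 33.9% of Cre+ and 35.0% of Cre- members. Across 57 IGHV genes with enough cells, the shares of the libraries had Pearson's r of 0.893 and Spearman's rho of 0.780, as a description across genes.

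Between the genotypes 1 of 57 IGHV genes passed the rule of size (1.75%). IGHV1-80 (chr12:115912344-115912637) was used by 39 of 1913 Cre+ members, 2.04% (1.45 to 2.78), and by 58 of 1533 Cre- members, 3.78% (2.89 to 4.86), a ratio of 0.539. In IgD cells the same gene stood at 3.55% (Cre+) and 3.6% (Cre-). With each lineage and constant gene counted once, or with a ratio of 2 required, 0 genes passed.

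**Figure D3:**
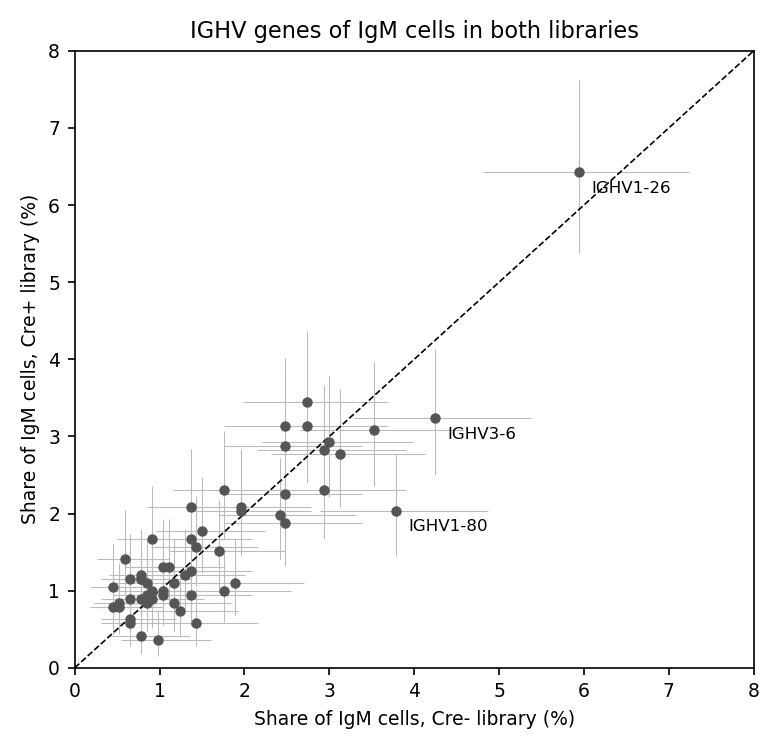
Share of IgM cells that used each of 57 IGHV genes, in percent, in the Cre- library (horizontal) and the Cre+ library (vertical), with exact 95% intervals and a dashed line of equal shares. Most genes lie along the line, IGHV1-26 stands highest at 6.43% and 5.94%, and IGHV1-80 lies below the line at 2.04% against 3.78%.

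V families were used unequally by IgM and IgD cells. IGHV1 genes were used by 61.0% of Cre+ members and 65.9% of Cre+ IgD cells, a difference of -4.97 points (-8.67 to -1.21), and by 60.6% and 66.0% in the Cre- library, a difference of -5.37 points (-9.64 to -1.03). IGHV6 genes were used by 4.08% of members and 2.43% of IgD cells in the Cre+ library, a difference of 1.64 points (0.205 to 2.96), and by 4.44% and 2.21% in the Cre- library, a difference of 2.22 points (0.553 to 3.71). Both families thus lay on the same side in both libraries, IGHV1 lower and IGHV6 higher in IgM. They were singled out after the values were seen. Heavy-chain UMIs differ between these families, as given above, and the upper tail of UMIs differs between IgM and IgD. Among cells of 3 to 19 UMIs the IGHV1 difference was -3.77 points (-7.75 to 0.267) and -6.19 points (-10.8 to -1.51), and the IGHV6 difference 0.909 points (-0.613 to 2.27) and 1.68 points (-0.086 to 3.23), so 3 of these 4 intervals then included 0.

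Other families differed from IgD in a single library. IGHV10 was higher in Cre+ members (2.51% against 1.12%) and at 2.35% against 1.52% in the Cre- library, where the interval of the difference included 0. IGHV8 was lower in Cre+ members (3.76% against 5.88%) and stood at 3.78% against 3.04% in the Cre- library. IGHV7 was higher in Cre- members (2.28% against 0.692%) and at 1.25% against 1.32% in the Cre+ library, and the share of IGHV7 in Cre+ members was 1.03 points lower than in Cre- members (difference -1.03, interval -2.01 to -0.112). Other families stood at 7.89% and 6.98% of members for IGHV5, 5.28% and 3.91% for IGHV9, 4.39% and 5.41% for IGHV3, 4.13% and 4.76% for IGHV2, and 3.71% and 3.98% for IGHV14. IGHV4 stood at 1.10% of Cre+ members against 0.304% of IgD cells, a difference of 0.793 points (0.0773 to 1.42), and at 0.848% against 0.692% in the Cre- library. IGHV13 stood at 0.836% and 0.522%. IGHV11 had 2 Cre+ members and 1 Cre- member, IGHV15 had 1 Cre- member, and no member used IGHV12.

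**Figure D4:**
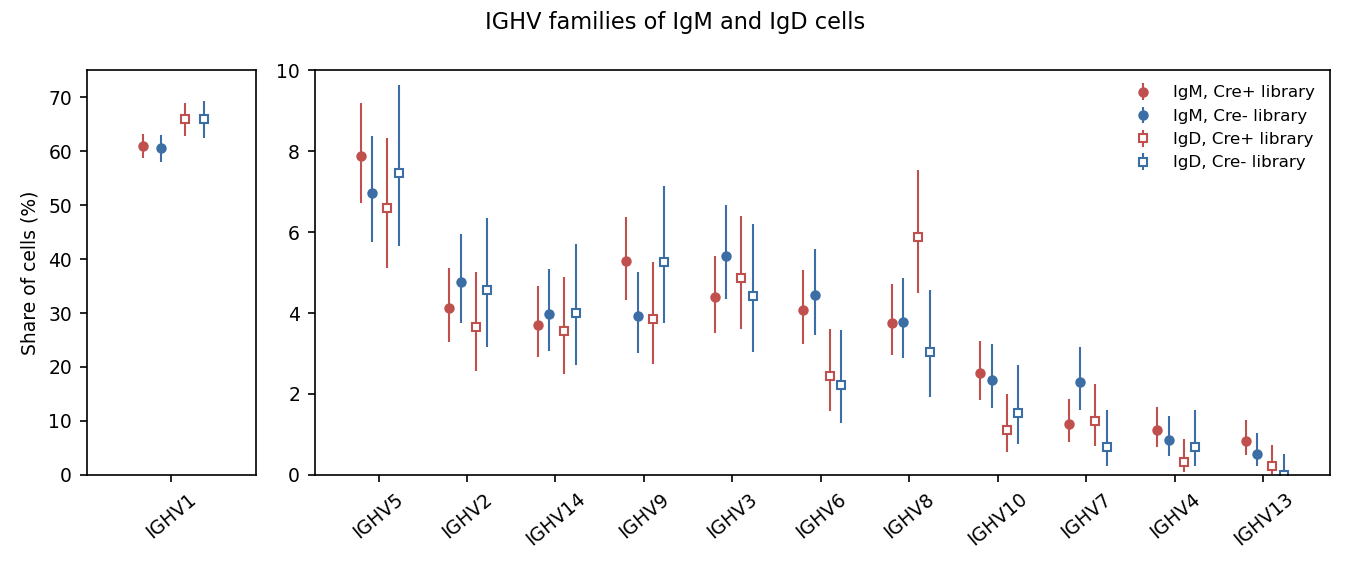
Share of IgM cells (filled circles) and IgD cells (open squares) that used each IGHV family, in percent with exact 95% intervals, in the Cre+ (red) and Cre- (blue) library; IGHV1 has its own axis. IGHV1 is lower in IgM, at 61.0% and 60.6% against 65.9% and 66.0%, and IGHV6 is higher in IgM in both libraries.

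Few single genes separated IgM from IgD. In the Cre+ library 1 of 52 IGHV genes passed the rule of size (1.92%), IGHV8-12 (chr12:115647945-115648245), at 1.10% of members and 2.74% of IgD cells. Of 43 genes in the Cre- library 0 passed, and IGHV8-12 stood the other way, at 1.89% of members and 0.968% of IgD cells. With the libraries pooled, 2 of 61 passed (3.28%). These were IGHV13-2 (chr12:114357761-114358060), at 0.696% of members and 0.117% of IgD cells, and IGHV6-6 (chr12:114434788-114435087), at 1.65% and 0.702%. IGHV6-6 was higher in IgM in each library, at 1.78% against 0.811% and 1.5% against 0.553%.

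Against switched cells with the largest lineage set aside, 4 of 43 Cre+ IGHV genes passed (9.3%), and 2 of 35 Cre- genes did (5.71%). In the Cre+ library IGHV1-9 was at 2.09% of members and 10.4% of switched cells, and IGHV1-12 at 0.889% and 7.64%. IGHV1-15 was at 2.04% of members and IGHV8-8 at 2.30%, each with 0 of 288 switched cells and an exact upper limit of 1.27%. In the Cre- library IGHV1-19 was at 0.913% of members and 4.2% of switched cells, and IGHV10-1 at 1.04% and 3.78%. With the largest lineage kept, 11.6% and 38.9% of the genes tested passed. Cells of 1 lineage share their V gene, and lineages were more frequent in switched cells than in the members, as given further on.

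Shares of some D families differed between the libraries. A D gene was called in 91.6% of Cre+ and 91.8% of Cre- members. IGHD2 made up 39.6% of Cre+ and 44.3% of Cre- members with a D gene, a difference of -4.70 points (-8.21 to -1.20). IGHD3 was at 8.5% and 6.25%, a difference of 2.25 points (0.363 to 4.10), and IGHD4, whose single gene lies next to the J segments, at 13.3% and 10.0%, a difference of 3.33 points (1.03 to 5.59). IGHD1 was at 35.8% and 36.7%, and IGHD5 at 2.74% and 2.63%. IgD cells had IGHD2 at 39.1% and 42.6%, IGHD3 at 7.28% and 7.76% and IGHD4 at 12.9% and 11.1%. For IGHD2 and IGHD4 the order of the libraries was the same in IgD cells as in the members, and for IGHD3 it was not. The IgD shares are given without intervals of their differences. IgD cells come from the same pooled mice as the members, so they are no separate support.

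The J genes and the CDR3 itself differed little between the libraries. IGHJ1 occurred in 17.1% (Cre+) and 18.5% (Cre-) of members, IGHJ2 by 35.5% and 34.8%, IGHJ3 by 22.4% and 21.3%, and IGHJ4 by 24.9% and 25.4%. The CDR3 had a median of 14 residues in both libraries and in IgD cells. CDR3s of 10 or fewer residues made up 8.57% and 8.28% of members, and those of 18 or more 8.42% and 9.39%. The median hydropathy, on the Kyte-Doolittle scale in which negative values are hydrophilic, was -0.767 and -0.765. The net charge was below 0 in 43.2% and 44.0% of members, against 41.0% and 40.2% of IgD cells.

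Departures from the J reference had similar shares in the members and in IgD cells, and were rarer in the members than in IgG2b cells and in IgA cells outside the largest lineages. A mismatch in the 9 nucleotides was found in 14.9% (13.3 to 16.6) of Cre+ and 15.3% (13.5 to 17.2) of Cre- members. IgD cells had 16.1% and 15.1%, IgA cells outside the largest lineages 45.1% and 37.4%, and IgG2b cells 30.7% and 41.9%. The few IgG1 cells had 9 of 55 (16.4%) and 10 of 21 (47.6%), the first close to the members' share. With the largest lineages kept, IgA cells had 33.3% and 8.96%, so in the Cre- library, where that lineage holds most IgA cells, IgA then lay below the members. The members lay 30.2 points below the IgA cells outside the largest lineages in the Cre+ library (difference -30.2, interval -38.9 to -21.8). In the Cre- library they lay 22.1 points below such cells (difference -22.1, interval -31.2 to -13.6). Many of these IgA cells still shared a lineage with another cell, as given further on, and cells of a lineage can share a mismatch. Both intervals treat the cells as independent, so they may be too narrow. By J gene the members' share was 4.27% and 3.17% for IGHJ1, 28.4% and 29.5% for IGHJ2, 14.7% and 15.9% for IGHJ3, and 3.14% and 4.11% for IGHJ4. Since the reference was taken from IgM and IgD cells, their low share is partly built in, and the comparison between IgM and IgD and between libraries is free of that.

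The members shared the position of their mismatches with IgD cells. In Cre+ members the share of cells with a mismatch was 11.5% at the ninth nucleotide before the last codon, the one nearest the joint, 2.72% at the sixth and 0.314% at the nucleotide next to that codon. In Cre- members these shares were 11.6%, 2.67% and 0.718%. IgD cells had 12.6%, 2.33% and 0.203% (Cre+) and 12.3%, 1.66% and 0.277% (Cre-). Once the largest lineage was set aside, switched cells had 16.0%, 8.33% and 5.56% (Cre+) and 18.1%, 9.24% and 6.72% (Cre-). Mismatches of the members, as those of IgD cells, lay mostly toward the joint, and those of switched cells reached the far end of the J stretch more often.

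At the V end of the CDR3 the members and IgD cells again lay below IgG2b cells and IgA cells outside the largest lineages. There the first 6 nucleotides were set against the most common ones of the V gene in IgM and IgD cells. A mismatch was found in 5.34% (4.34 to 6.48) of Cre+ and 5.58% (4.46 to 6.89) of Cre- members and in 4.58% and 3.94% of IgD cells. IgA cells outside the largest lineages had 39.8% and 19.5%, and IgG2b cells 31.7% and 18.3%. With the largest lineages kept, IgA cells had 28.8% and 4.60%.

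**Figure D5:**
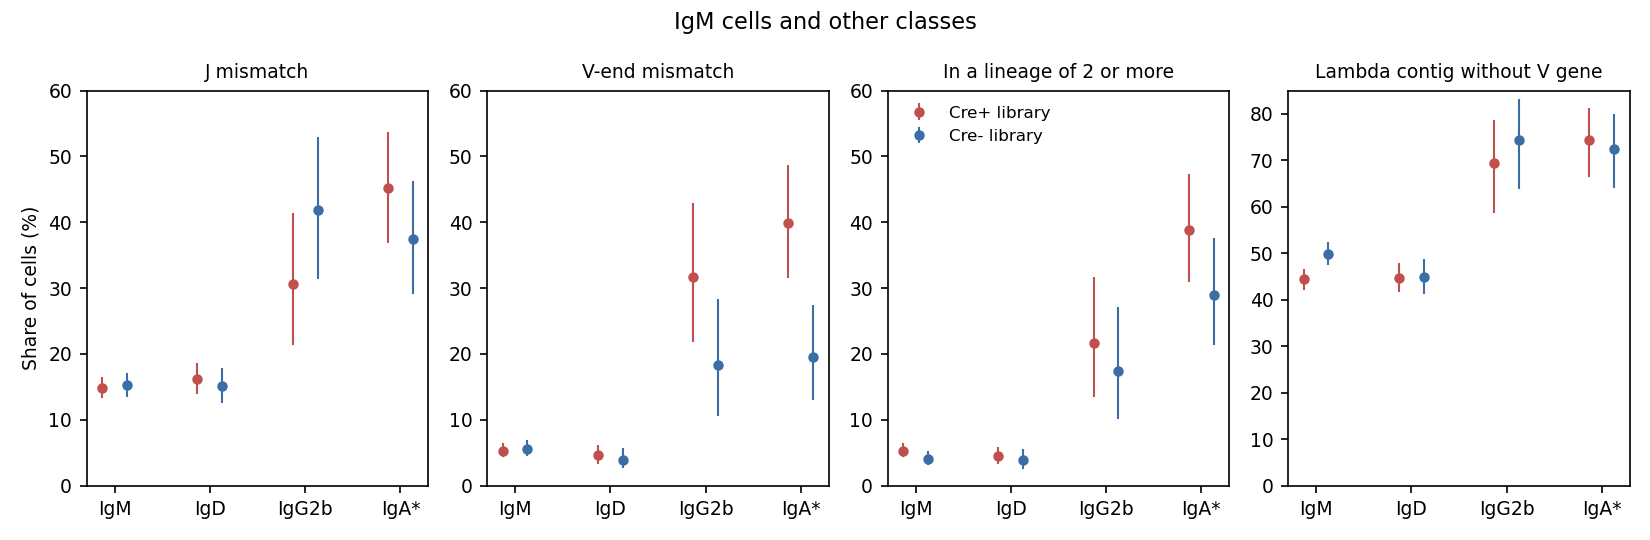
Share of cells, in percent with exact 95% intervals, with a J mismatch, with a V-end mismatch, in a lineage of 2 or more cells, and with a lambda contig without V gene, for IgM, IgD, IgG2b and IgA cells in the Cre+ (red) and Cre- (blue) library; IgA* is IgA outside the largest lineage. IgM and IgD lie close together in every panel, with J mismatches at 14.9% and 15.3% in IgM, and below IgG2b and IgA*.

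In the Cre+ library the members of high transcript count carried more mismatches than the rest, with a split at 20 UMIs chosen after the data were seen. J mismatches were found in 28.8% (22.1 to 36.3) of the 170 Cre+ members with 20 to 99 heavy-chain UMIs and in 13.5% (11.97 to 15.24) of those with 1 to 19, a difference of 15.3 points (8.39 to 22.9). The Cre- shares were 19.3% (13.3 to 26.6) of 150 members and 14.8% (13.0 to 16.8), a difference of 4.51 points (-1.80 to 11.98) that included 0. The lowest range differed between the libraries, with mismatches in 8.77% (4.29 to 15.5) of 114 Cre+ and 25% (17.4 to 33.9) of 116 Cre- members at 1 to 2 UMIs. The ranges from 3 to 19 UMIs lay between 12.2% and 16.8% in both. Without IGHJ2, the J gene with the most mismatches, the Cre+ shares were 19.05% and 6.38%, and the Cre- shares 9.28% and 7.53%. IgD cells of 20 to 99 UMIs had 4 of 52 with a mismatch in the Cre+ library (7.69%) and 9 of 49 in the Cre- library (18.4%).

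At the top of the range, 15 Cre+ and 17 Cre- members had 50 to 99 UMIs, where IgD had 1 cell and none. Of these members 6 of 15 and 8 of 17 carried a J mismatch, 5 of 15 and 3 of 17 sat in a lineage of 2 or more cells, and 0 of 15 and 4 of 17 had a lambda light chain. They used 13 and 14 different IGHV genes, and 7 and 6 of them used the IGHV1 family. Their light-chain UMIs had medians of 102 and 115. Gene expression of these cells was not analysed here, so no cell state was assigned to them.

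Lineages of members were rare. Cells of 1 library were joined into a lineage when they agreed in V gene, J gene and CDR3 length and were linked by CDR3 nucleotide identity of at least 85%. Of the members, 5.33% (4.37 to 6.44) in the Cre+ and 4.11% (3.17 to 5.23) in the Cre- library sat in a lineage of 2 or more cells of any class, a difference of 1.22 points (-0.254 to 2.67). IgD cells had 4.46% and 3.87%, IgG2b cells 21.6% and 17.4%, and IgA cells outside the largest lineages 38.9% and 29.0%. Counting members alone, 66 of 1913 Cre+ members formed 29 lineages, 25 of them pairs, and 36 of 1533 Cre- members formed 17, of which 15 were pairs. At an equal 1533 cells such lineages held 2.91% of Cre+ and 2.35% of Cre- members. By the same rule of identity, 2.61% of Cre+ and 3.26% of Cre- members had a partner among the members of the other library, which comes from other mice. These shares across libraries are close to those within a library. An identical heavy-chain CDR3 nucleotide sequence and V and J gene in another cell of the library was found for 0.836% of Cre+ and 0.196% of Cre- members.

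Links to switched cells were rarer still. A lineage that also held a switched cell contained 0.993% of Cre+ and 0.783% of Cre- members, and one that also held an IgD cell 1.73% and 1.57%. Within pairs of members of 1 lineage, both had the same light V gene in 7 of 48 Cre+ pairs (14.6%) and 3 of 21 Cre- pairs (14.3%), against 2.23% and 2.15% over all pairs of members. Most linked pairs thus had different light chains. Pairs of 1 lineage are not independent, and the Cre+ pairs include those of the IGHV5-17 lineage described below, in which no light V gene recurred among the 7 members. A shared J mismatch occurred in 2 of 29 Cre+ lineages and 0 of 17 Cre- lineages. In both lineages the 2 cells also had the same light V gene. The lineage with IGHV1-15 is shown as an example, and capitals mark the base that departs from the J reference.
IGHV1-15, IGKV1-110, 36 UMIs: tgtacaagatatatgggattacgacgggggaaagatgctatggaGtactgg
IGHV1-15, IGKV1-110, 74 UMIs: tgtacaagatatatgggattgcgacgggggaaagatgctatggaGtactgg
Both cells had 36 or more heavy-chain UMIs, above the Cre+ median of 8.

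The largest lineage with members was the dominant lineage of the Cre+ library, IGHV5-17 with IGHJ4, of 64 cells, 53 of them IgA. It held 7 members, with 2, 2, 6, 6, 6, 11 and 12 heavy-chain UMIs. Of these, 5 had the CDR3 sequence that 62 of the 64 cells shared, and the other 2 had their own. The lineage's sequences are shown because the capitals mark where the 2 separate members depart from the shared one.
62 cells, 5 of them members: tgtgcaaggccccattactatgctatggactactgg
1 member, 11 UMIs: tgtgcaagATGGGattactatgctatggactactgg
1 member, 12 UMIs: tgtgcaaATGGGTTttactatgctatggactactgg
The differences of the 2 separate members, 5 and 7 bases, lie in 1 block near the V end of the CDR3. None of the 7 members carried IGKV4-72, the light V gene of 48 cells of the lineage. The 5 members with the shared CDR3 had IGKV8-19, IGKV3-4, IGKV10-96, IGKV1-135 and, in 1 cell, no light chain, and the 2 others IGKV6-23 and IGKV12-44. Where a light chain was found, heavy chain and light chain of these barcodes thus did not match the main pair of the lineage together.

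The other lineages that joined 2 or more members with a switched cell were small. In the Cre+ library 2 members with IGHV1-18 and IGHJ1 shared an identical CDR3 with an IgG2b cell, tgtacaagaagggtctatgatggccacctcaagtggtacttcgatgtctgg. Of these 3 cells, 2 had different light V genes, IGKV10-96 and IGKV6-17, and 1 had no light chain to compare. Among Cre- cells, 3 members with IGHV1-26 and IGHJ2 were linked to an IgD and an IgA cell, 2 members with IGHV1-55 and IGHJ2 to an IgA cell, and 2 members with IGHV6-6 and IGHJ2 to an IgG2b cell. In these 3 lineages every cell had its own CDR3 sequence. In the IGHV1-26 and IGHV1-55 lineages no 2 cells shared a light V gene. The IGHV6-6 members had the same light V gene, IGKV8-21, and their CDR3s, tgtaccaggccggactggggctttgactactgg and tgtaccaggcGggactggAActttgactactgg, differ at the 3 bases in capitals, while the IgG2b cell had IGKV6-13.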

How the data were processed

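The authors deposited, per the file headers, a table of assembled receptor contigs for each library, with the count of UMIs and of reads per contig as raw counts. Cell Ranger and GRCm38 appear in the submitters' processing notes; the software version was not found in the sources used here. Barcodes with 2 or more heavy chains (84 Cre+ and 53 Cre- with IgM as the top chain) were left out and no doublet caller was run. Comparison classes had the same limit of 100 UMIs. The light chain was the productive one with the most UMIs. Differences of shares were given intervals by combining both exact intervals. The V-end reference needed 20 or more IgM and IgD cells of the gene. Lineages were joined by single linkage, and expected shares at equal cell numbers were computed without replacement.

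Members and gene lists were chosen with earlier results of these data known. Genes were named if they were constant, J or lambda genes or V or D families, among the 10 IGHV or 5 IGKV genes with most members, or past the rule of size. Of the IGHV names used by members, 93 of 93 were found in the RefSeq table. Alternatives varied the UMI minimum, the counting of lineages, the identity that joins them, the mismatch windows and the rule of size. Lineage joining, the rule of size and the intervals were tested on simulated data. The simulated CDR3s had random bases, so joins of unrelated real CDR3s were not tested, and the mismatch measures were not simulated. The steps were run with Python 3.11.15, pandas 2.3.3, numpy 2.4.6 and scipy 1.17.1. The sequence of 1 lineage with a shared J mismatch is not reported here.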

Additional observations from a re-analysis of the deposited data

How the results depend on the processing

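Of 162 planned recomputations, 126 stayed within the interval of the reported value, or within 1.5 times for counts of genes. IgM as a share of cells with a constant gene became 60.8% in the Cre- library without its largest lineage, and 60.3% (Cre+) and 61.3% (Cre-) with each lineage and constant gene counted once. The number of IGHV genes past the rule between the libraries became 0 with lineages counted once and 0 at a ratio of 2. The light to heavy ratio was 3.29 and 3.30 at 3 or more heavy-chain UMIs, and 3.29 in the Cre+ library from summed UMIs. The mean CDR3 length was 14.07 and 14.17 residues. J mismatches were found in 5.28% and 4.76% of members over 6 nucleotides, 36.7% and 35.6% over 12, and 12.6% and 13.2% with the J genes weighted equally. V-end mismatches were found in 24.0% and 23.0% over 9 nucleotides. The size of each mismatch share thus follows the window length.

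Membership of lineages depended most on the rule of joining. The share of members in lineages of 2 or more cells was 12.8% and 9.52% at 80% identity, 2.25% and 1.63% at 90%, 1.15% and 0.522% with a shared light V gene, 0.836% and 0.196% with identical CDR3s, and 3.26% and 2.91% with lineages counted once. The share in a lineage with an IgD or a switched cell was 5.85% and 5.02% at 80% identity, 0.993% and 0.652% at 90%, 0.470% and 0.0652% with a shared light V gene, and 0.470% and 0.13% with identical CDR3s.

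The IGHV1 and IGHV6 differences from IgD and the mismatch difference by UMI range were themselves chosen after the data were seen. So were their recomputations with lineages counted once, without IGHJ2 or with all barcodes. No interval moved across 0 except at 3 to 19 UMIs, as given above. No paired analysis was possible because each genotype is 1 pooled library. Small shares are limited by depth: an event seen in none of the members may occur in up to 0.193% of Cre+ and 0.240% of Cre- members.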
